A study of Mus musculus with 12 samples.

Results

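The 10 genes described here are the ligand Nodal and genes that act in or are switched on by its pathway: Tdgf1, Foxh1, Lefty1, Lefty2, Cer1, Skil, Smad7, Pmepa1 and Gsc. They were chosen by name from what is known of the pathway, with earlier results of these data known, and are 10 of the 22180 genes that the array table measured with a probe set of a single gene symbol. Each of the 10 had 1 probe set.

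Expression was measured on 12 microarrays of mouse pluripotent cells, 2 for each of 6 groups. The rsEpiSC lines were derived at embryonic day (E) 6.5 and E5.75 and kept in IWR1 (2.5 µM), an inhibitor of canonical Wnt signalling, and a further factor (20 ng/ml) whose name the labels leave out. The EpiSC lines, derived from the epiblast at E5.75, were kept in FGF2 (12 ng/ml), Activin A (20 ng/ml) and KSR, a serum replacement (20%). The ESC lines, derived at E3.5, were kept in the GSK3 inhibitor CHIR99021 (3 µM), the MEK inhibitor PD0325901 (1 µM) and LIF (10 µg/ml). All lines shared N2B27 medium and a feeder layer of mouse embryonic fibroblasts (MEFs). The last groups were epiblast tissue of E6.5 and of E5.75, the pluripotent layer of the implanted embryo. The strain label crosses an OCT4-deltaPE-GFP reporter to C57BL/6, but its closing number counts up from array to array, so strain was not used. Nothing in the labels says that the arrays of a group came from separate cultures or embryos, so p-values measure the spread between these arrays, which may be technical.

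Nodal is a secreted protein of the TGF-beta family. It binds activin receptors together with a co-receptor such as Cripto, the product of Tdgf1, while Activin uses the same receptors without one. The receptors phosphorylate Smad2 and Smad3, which enter the nucleus with Smad4 and act there with partners such as Foxh1. The pathway switches on Nodal itself and several of its own inhibitors. In the mouse embryo Nodal signalling keeps the epiblast pluripotent and patterns the primitive streak, and EpiSC in culture depend on Activin or Nodal.

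The rsEpiSC groups had lower signals than EpiSC for the co-receptor Tdgf1, the secreted inhibitor Lefty1 and the intracellular feedback inhibitors Skil, Smad7 and Pmepa1. In rsEpiSC E6.5, 5 of the 10 genes fell against EpiSC and 0 rose (limma, adjusted p under 0.05). Over all genes 2.56% were called lower and 1.33% higher in that comparison. In rsEpiSC E5.75, 6 of the 10 fell against EpiSC and 0 rose, Foxh1 being the sixth, where 2.31% of all genes were called lower and 1.56% higher. The median log2 difference of the 10 genes was -1.70 in rsEpiSC E6.5 and -1.69 in rsEpiSC E5.75, beside a median of 0.02 over all genes in each comparison. In both comparisons 8 of the 10 genes were lower in each rsEpiSC array than in both EpiSC arrays, which 24% of all genes were in rsEpiSC E6.5 and 22.4% in rsEpiSC E5.75. The 8 included Cer1 at E6.5 and Lefty2 at E5.75, whose signals lay under the median gene of the arrays compared. Gsc lay above both EpiSC arrays in rsEpiSC E5.75, by 0.20 on the means, which did not pass. The 2 comparisons share the EpiSC arrays, so their values are given side by side and were not counted as separate support. The counts rest on single arrays. Without EpiSC replicate 2, 3 genes passed in each comparison. Without rsEpiSC E6.5 replicate 2 the first count was 2, and without rsEpiSC E5.75 replicate 2 the other was 2. Tdgf1 and Skil passed in both comparisons in all 12 fits that left out an array.

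**Figure D1:**
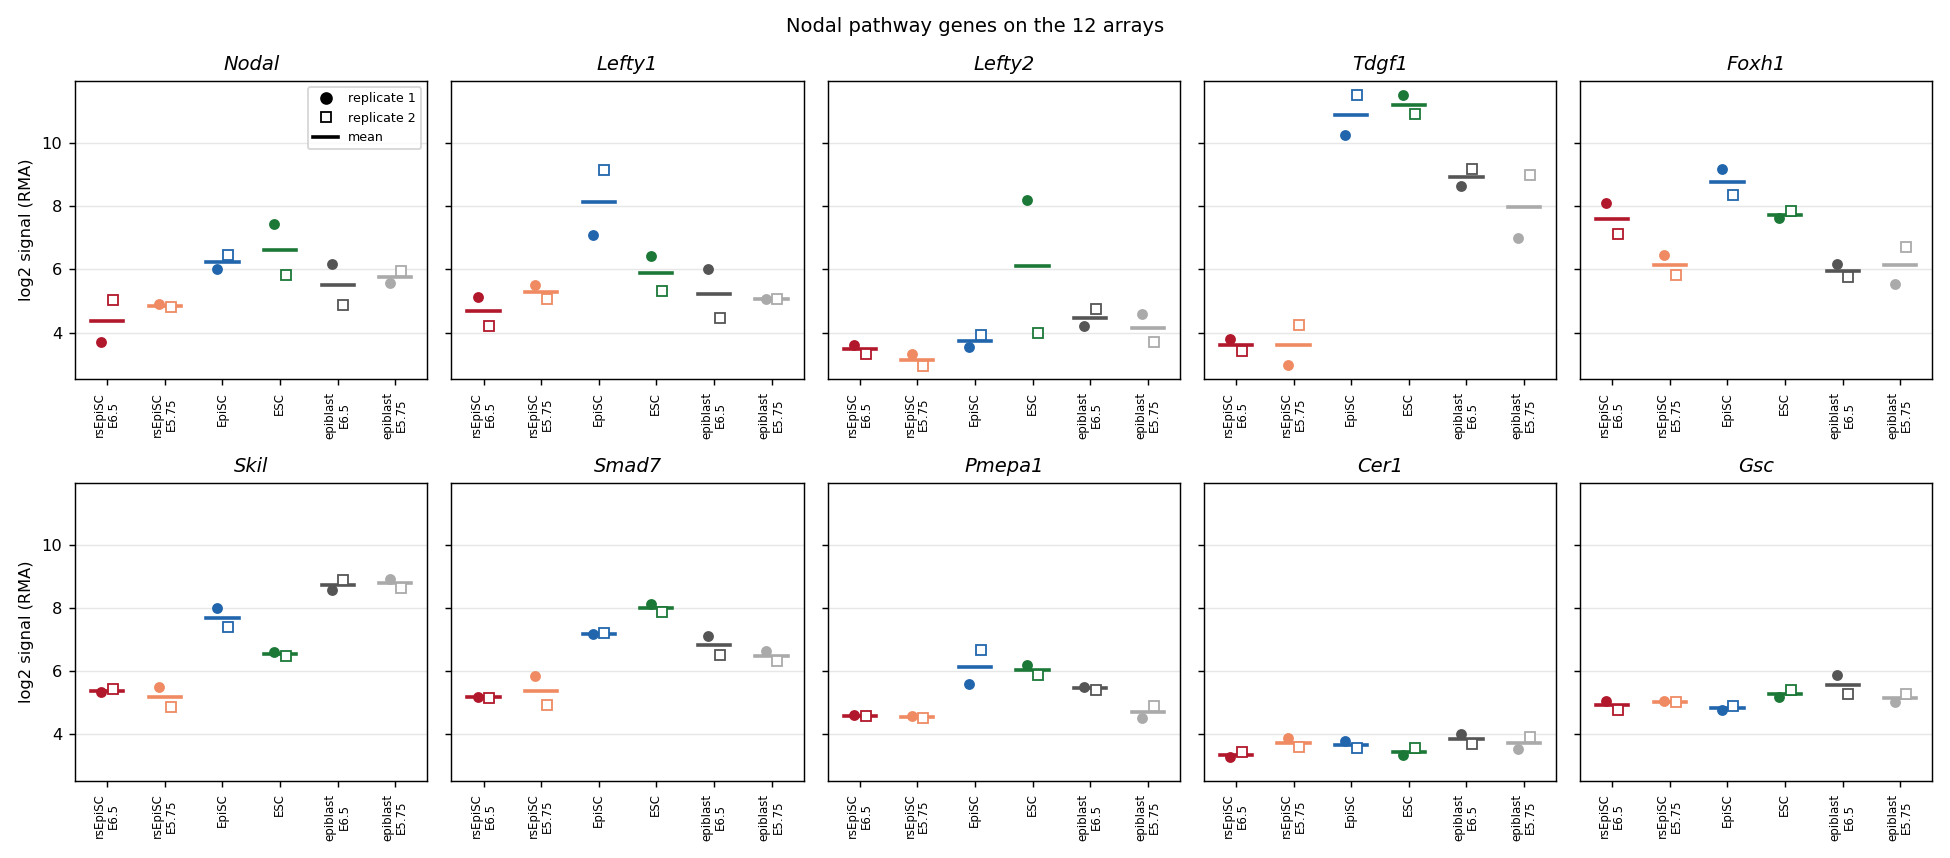
Log2 signal (y axis, RMA values) of each of the 10 genes on the 12 arrays by group, with replicate 1 as filled circles, replicate 2 as open squares and the group mean as a bar. Tdgf1 lies between 2.98 and 4.24 on the 4 rsEpiSC arrays and between 6.99 and 11.52 on the other 8, while Cer1 stays between 3.29 and 4.01 on all 12.

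Nodal, the ligand, lies on chromosome 10. It had log2 signals of 3.70 and 5.02 in rsEpiSC E6.5, 4.90 and 4.81 in rsEpiSC E5.75, 6.00 and 6.46 in EpiSC, 7.44 and 5.81 in ESC, 6.16 and 4.87 in epiblast E6.5, and 5.57 and 5.95 in epiblast E5.75. The 4 rsEpiSC arrays lay under all EpiSC and ESC arrays, and overlapped epiblast E6.5. In order of group means, ESC at 6.63 stood first, followed by EpiSC at 6.23, epiblast E5.75 at 5.76, epiblast E6.5 at 5.51, rsEpiSC E5.75 at 4.85 and rsEpiSC E6.5 at 4.36. Of these neighbours, EpiSC and epiblast E5.75 did not overlap, and the others did. Nodal fell by 2.26 ± 0.56 on the log2 scale in rsEpiSC E6.5 against ESC (SE, n = 2 each, limma adjusted p = 0.0258). That call was lost without ESC replicate 1, at an adjusted p of up to 0.261 over the fits that left out an array, and without rsEpiSC E6.5 replicate 1. The other rsEpiSC differences in Nodal did not pass. They were -1.77 ± 0.56 in rsEpiSC E5.75 against ESC (adjusted p = 0.0724), -1.87 ± 0.56 in rsEpiSC E6.5 against EpiSC (adjusted p = 0.103) and -1.38 ± 0.56 in rsEpiSC E5.75 against EpiSC (adjusted p = 0.283). The first passed without ESC replicate 2, at -2.59 (adjusted p = 0.0177), and the second without ESC replicate 1 (adjusted p = 0.0474) or ESC replicate 2 (adjusted p = 0.0476). Against tissue of the same stage the differences were -1.15 in rsEpiSC E6.5 (adjusted p = 0.201) and -0.91 in rsEpiSC E5.75 (adjusted p = 0.264).

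Tdgf1, on chromosome 9, encodes the Nodal co-receptor Cripto and showed the largest difference of the 10 genes in each of the 6 comparisons of rsEpiSC with EpiSC, ESC and tissue of the same stage. Its log2 signal was 3.80 and 3.42 in rsEpiSC E6.5, 2.98 and 4.24 in rsEpiSC E5.75, 10.24 and 11.52 in EpiSC, 11.51 and 10.91 in ESC, 8.65 and 9.18 in epiblast E6.5, and 6.99 and 8.98 in epiblast E5.75. The 4 rsEpiSC arrays lay below the other 8 with a gap between them, and on those 4 arrays Tdgf1 was under the array's median gene. Against EpiSC, Tdgf1 fell by 7.27 ± 0.61 on the log2 scale in rsEpiSC E6.5 (SE, n = 2 each, limma adjusted p = 6.73e-05). The fall was also 7.27 ± 0.61 in rsEpiSC E5.75 (adjusted p = 9.05e-05). Since the rsEpiSC signals lay at the low end of the arrays, these sizes are differences of array signal and do not measure the fold of the transcript. Against ESC it fell by 7.60 in each rsEpiSC group (adjusted p = 1.34e-05 at E6.5 and 1.23e-05 at E5.75). Against tissue the fall was smaller, 5.30 ± 0.61 in rsEpiSC E6.5 (adjusted p = 0.000456) and 4.38 ± 0.61 in rsEpiSC E5.75 (adjusted p = 0.000747), and all 6 calls were kept whichever array was left out. EpiSC exceeded epiblast E5.75 by 2.90 ± 0.61 (adjusted p = 0.00629), a call lost without EpiSC replicate 2 or epiblast E5.75 replicate 1, and EpiSC differed from ESC by -0.33 ± 0.61 (adjusted p = 0.912). In order, ESC at 11.21 and EpiSC at 10.88 overlapped, as did epiblast E6.5 at 8.91 and epiblast E5.75 at 7.98, and the 2 rsEpiSC groups at 3.61 each.

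The 250 bases before the start of Tdgf1 and of Nodal are shown because these are the co-receptor whose signal differed most between rsEpiSC and the other groups, and the ligand that it serves. The sequences are RefSeq's, on GRCm38.p6, at chr9:110946159-110946408 on the minus strand for Tdgf1 and chr10:61417722-61417971 on the plus strand for Nodal, written 5′ to 3′ along the gene. Capitals mark matches on either strand to the Smad motif CAGAC, the FOXH1 motif AATNNACA or the TCF/LEF motif CTTTGA.
Tdgf1 promoter: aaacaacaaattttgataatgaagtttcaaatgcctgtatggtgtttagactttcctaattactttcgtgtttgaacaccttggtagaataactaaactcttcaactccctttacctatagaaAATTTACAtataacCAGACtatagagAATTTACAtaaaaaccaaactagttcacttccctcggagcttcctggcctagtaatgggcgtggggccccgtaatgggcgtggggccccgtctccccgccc
Nodal promoter: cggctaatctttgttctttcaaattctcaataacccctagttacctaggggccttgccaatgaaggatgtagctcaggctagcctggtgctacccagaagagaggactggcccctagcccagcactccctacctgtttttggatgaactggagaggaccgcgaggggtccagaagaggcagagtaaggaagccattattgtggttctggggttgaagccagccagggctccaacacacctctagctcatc
The Tdgf1 window held 2 matches to the FOXH1 motif, 127 to 120 and 101 to 94 bases before the start, with 1 Smad match between them at 113 to 109 bases. These did not overlap each other. Of 32851 mouse promoters of the same length, 10.9% held the FOXH1 motif, 42.2% the Smad motif and 13.8% the TCF/LEF motif. At least 2 FOXH1 matches were held by 1.12%, and at least 2 FOXH1 matches and a Smad match by 0.405%. The last combination is the one seen in the Tdgf1 window, so its share does not test that window. The Nodal window held none of the 3, and had 1 CCAAT box, as 33.8% of promoters did. RefSeq promoters were at hand for 4 of the 10 genes. The others with one were Cer1, with 1 Smad match, and Gsc, with a TATA box (TATAAA) and 2 GC boxes (GGGCGG). A match is only a run of letters in this window, and says nothing of binding in these cells.

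Foxh1, on chromosome 15, encodes the forkhead factor that recruits Smad2 and Smad4 to Nodal targets. Its log2 signal was 8.09 and 7.11 in rsEpiSC E6.5, 6.47 and 5.83 in rsEpiSC E5.75, 9.16 and 8.34 in EpiSC, 7.62 and 7.84 in ESC, 6.16 and 5.76 in epiblast E6.5, and 5.55 and 6.70 in epiblast E5.75. The 2 rsEpiSC groups did not overlap, with E6.5 the higher. Foxh1 fell by 2.60 ± 0.45 in rsEpiSC E5.75 against EpiSC (SE, n = 2 each, adjusted p = 0.00611) and by 1.58 ± 0.45 against ESC (adjusted p = 0.0429). In rsEpiSC E6.5 it differed by -1.15 ± 0.45 from EpiSC (adjusted p = 0.236) and by -0.13 ± 0.45 from ESC (adjusted p = 0.955), neither of which passed. Foxh1 rose by 1.64 ± 0.45 in rsEpiSC E6.5 against epiblast E6.5 (adjusted p = 0.0343), the sole rise among the 10 genes in the 6 rsEpiSC comparisons with EpiSC, ESC and tissue. In rsEpiSC E5.75 the difference from epiblast E5.75 was 0.02 ± 0.45 (adjusted p = 0.975). EpiSC exceeded epiblast E5.75 by 2.63 ± 0.45 (adjusted p = 0.00189), a call kept whichever array was left out. The fall against EpiSC was lost without EpiSC replicate 1 or rsEpiSC E5.75 replicate 2. The fall against ESC was lost in 6 of 12 fits that left out an array, those without either array of ESC, rsEpiSC E5.75 or epiblast E6.5. The rise against tissue was lost without any 1 of its 4 arrays.

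Lefty1 and Lefty2, neighbouring paralogs on chromosome 1, encode secreted antagonists that bind Nodal and its co-receptors. Since the genes are near copies, how far their probe sets read each other's transcripts is uncertain. Lefty1 had log2 signals of 5.14 and 4.20 in rsEpiSC E6.5, 5.50 and 5.07 in rsEpiSC E5.75, 7.09 and 9.14 in EpiSC, 6.43 and 5.33 in ESC, 6.02 and 4.46 in epiblast E6.5, and 5.08 and 5.06 in epiblast E5.75. EpiSC stood above the other 5 groups, with a gap of 2.05 between its own arrays. Lefty1 fell by 3.45 ± 0.65 in rsEpiSC E6.5 against EpiSC (SE, n = 2 each, adjusted p = 0.0117) and by 2.84 ± 0.65 in rsEpiSC E5.75 (adjusted p = 0.031). The call at E6.5 was lost without EpiSC replicate 2 or rsEpiSC E6.5 replicate 2, and that at E5.75 without EpiSC replicate 2 or either rsEpiSC E5.75 array. EpiSC exceeded epiblast E5.75 by 3.05 ± 0.65 (adjusted p = 0.00647), lost without EpiSC replicate 2 (adjusted p = 0.0566). EpiSC differed from ESC by 2.24 ± 0.65 (adjusted p = 0.0672), which passed only in the fit without EpiSC replicate 1, at 3.27 (adjusted p = 0.0164), among the fits that left out an array.

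Lefty2 gave no call in the comparisons described. Its log2 signal was 3.63 and 3.33 in rsEpiSC E6.5, 3.33 and 2.96 in rsEpiSC E5.75, 3.55 and 3.92 in EpiSC, 8.19 and 4.0 in ESC, 4.20 and 4.74 in epiblast E6.5, and 4.58 and 3.69 in epiblast E5.75. ESC replicate 1 stood far above the other 11 arrays, and the gap of 4.19 between the ESC arrays was the widest between the arrays of a group for the 10 genes. Lefty2 was under the median gene on 10 arrays, all but ESC replicate 1 and epiblast E6.5 replicate 2, which limits what differences could be seen. The differences from ESC were -2.62 ± 0.91 in rsEpiSC E6.5 (adjusted p = 0.111), -2.95 ± 0.91 in rsEpiSC E5.75 (adjusted p = 0.0646) and -2.36 ± 0.91 in EpiSC (adjusted p = 0.191). Without ESC replicate 2 all 3 passed, at -4.71, -5.05 and -4.45 in the same order, each then resting on a single ESC array. Cer1, on chromosome 4, encodes another secreted antagonist of Nodal. Its log2 signals lay between 3.29 and 4.01 on all 12 arrays, under the median gene of each array, and it gave no call in any comparison.

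Skil, on chromosome 3, encodes SnoN, a nuclear corepressor that binds Smad proteins. Its log2 signal was 5.35 and 5.42 in rsEpiSC E6.5, 5.51 and 4.88 in rsEpiSC E5.75, 7.98 and 7.41 in EpiSC, 6.61 and 6.49 in ESC, 8.57 and 8.87 in epiblast E6.5, and 8.90 and 8.64 in epiblast E5.75. Tissue, EpiSC, ESC and rsEpiSC formed 4 tiers that did not overlap, with the stages overlapping within tissue and within rsEpiSC. Skil fell by 2.31 ± 0.30 in rsEpiSC E6.5 against EpiSC (SE, n = 2 each, adjusted p = 0.00118) and by 2.50 ± 0.30 in rsEpiSC E5.75 (adjusted p = 0.000606). Against tissue it fell by 3.33 ± 0.30 in rsEpiSC E6.5 (adjusted p = 8.72e-05) and by 3.58 ± 0.30 in rsEpiSC E5.75 (adjusted p = 3.58e-05). These 4 calls were kept whichever array was left out. Against ESC the falls were smaller, 1.16 ± 0.30 in rsEpiSC E6.5 (adjusted p = 0.029) and 1.36 ± 0.30 in rsEpiSC E5.75 (adjusted p = 0.0117). The call at E6.5 was lost without any 1 of its 4 arrays, and that at E5.75 without rsEpiSC E5.75 replicate 2. EpiSC fell by 1.08 ± 0.30 against epiblast E5.75 (adjusted p = 0.0222), a call lost without EpiSC replicate 2 or epiblast E5.75 replicate 1.

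Smad7 encodes an inhibitory Smad that blocks the receptors and that the pathway switches on. Its log2 signal was 5.18 and 5.16 in rsEpiSC E6.5, 5.84 and 4.93 in rsEpiSC E5.75, 7.18 and 7.20 in EpiSC, 8.13 and 7.85 in ESC, 7.12 and 6.50 in epiblast E6.5, and 6.64 and 6.33 in epiblast E5.75. Every rsEpiSC array lay under the 8 other arrays. Smad7 fell by 2.82 ± 0.33 in rsEpiSC E6.5 against ESC (SE, n = 2 each, adjusted p = 0.000193) and by 2.61 ± 0.33 in rsEpiSC E5.75 (adjusted p = 0.000301), and both calls were kept whichever array was left out. Against EpiSC the falls were 2.02 ± 0.33 at E6.5 (adjusted p = 0.00507), lost without rsEpiSC E6.5 replicate 2, and 1.80 ± 0.33 at E5.75 (adjusted p = 0.00948), lost without either EpiSC array or rsEpiSC E5.75 replicate 2. Against tissue they were 1.64 ± 0.33 at E6.5 (adjusted p = 0.00919) and 1.10 ± 0.33 at E5.75 (adjusted p = 0.0351). The call at E6.5 was lost without either rsEpiSC E6.5 array or epiblast E6.5 replicate 1. The call at E5.75 was lost without rsEpiSC E5.75 replicate 2, epiblast E5.75 replicate 1 or either rsEpiSC E6.5 array, the last of which enter that comparison through the shared estimate of spread.

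Pmepa1, on chromosome 2, encodes a membrane protein that is induced by TGF-beta signals and keeps Smad2 and Smad3 from the receptors. Its log2 signal was 4.61 and 4.59 in rsEpiSC E6.5, 4.57 and 4.52 in rsEpiSC E5.75, 5.59 and 6.66 in EpiSC, 6.20 and 5.88 in ESC, 5.50 and 5.42 in epiblast E6.5, and 4.52 and 4.88 in epiblast E5.75. The rsEpiSC arrays lay under those of EpiSC, ESC and epiblast E6.5, and overlapped those of epiblast E5.75. Pmepa1 was under the median gene on 5 arrays, those of rsEpiSC and epiblast E5.75 replicate 1, so its falls are differences of array signal. Pmepa1 fell by 1.52 ± 0.33 in rsEpiSC E6.5 against EpiSC (SE, n = 2 each, adjusted p = 0.0229) and by 1.58 ± 0.33 in rsEpiSC E5.75 (adjusted p = 0.0179). Against ESC it fell by 1.44 ± 0.33 at E6.5 (adjusted p = 0.0159) and by 1.49 ± 0.33 at E5.75 (adjusted p = 0.0116). Each of these 4 calls was lost without either array of its rsEpiSC group, the first pair also without EpiSC replicate 2 and the second pair also without ESC replicate 1. Against tissue the differences were -0.86 ± 0.33 at E6.5 (adjusted p = 0.104) and -0.15 ± 0.33 at E5.75, neither of which passed. EpiSC exceeded epiblast E5.75 by 1.42 ± 0.33 (adjusted p = 0.00928), lost without EpiSC replicate 2 or epiblast E5.75 replicate 1.

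Gsc, on chromosome 12, encodes goosecoid, a homeobox factor of the anterior primitive streak and a target of Nodal signalling. Its log2 signals were 5.06 and 4.78 in rsEpiSC E6.5, 5.06 and 5.03 in rsEpiSC E5.75, 4.76 and 4.91 in EpiSC, 5.17 and 5.41 in ESC, 5.89 and 5.27 in epiblast E6.5, and 5.02 and 5.26 in epiblast E5.75. Epiblast E6.5 had the highest mean, at 5.58, and overlapped ESC, the next in order at 5.29. Gsc gave no call in any comparison, and its difference in rsEpiSC E6.5 against epiblast E6.5 was -0.66 ± 0.27 (SE, n = 2 each, adjusted p = 0.13).

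**Figure D2:**
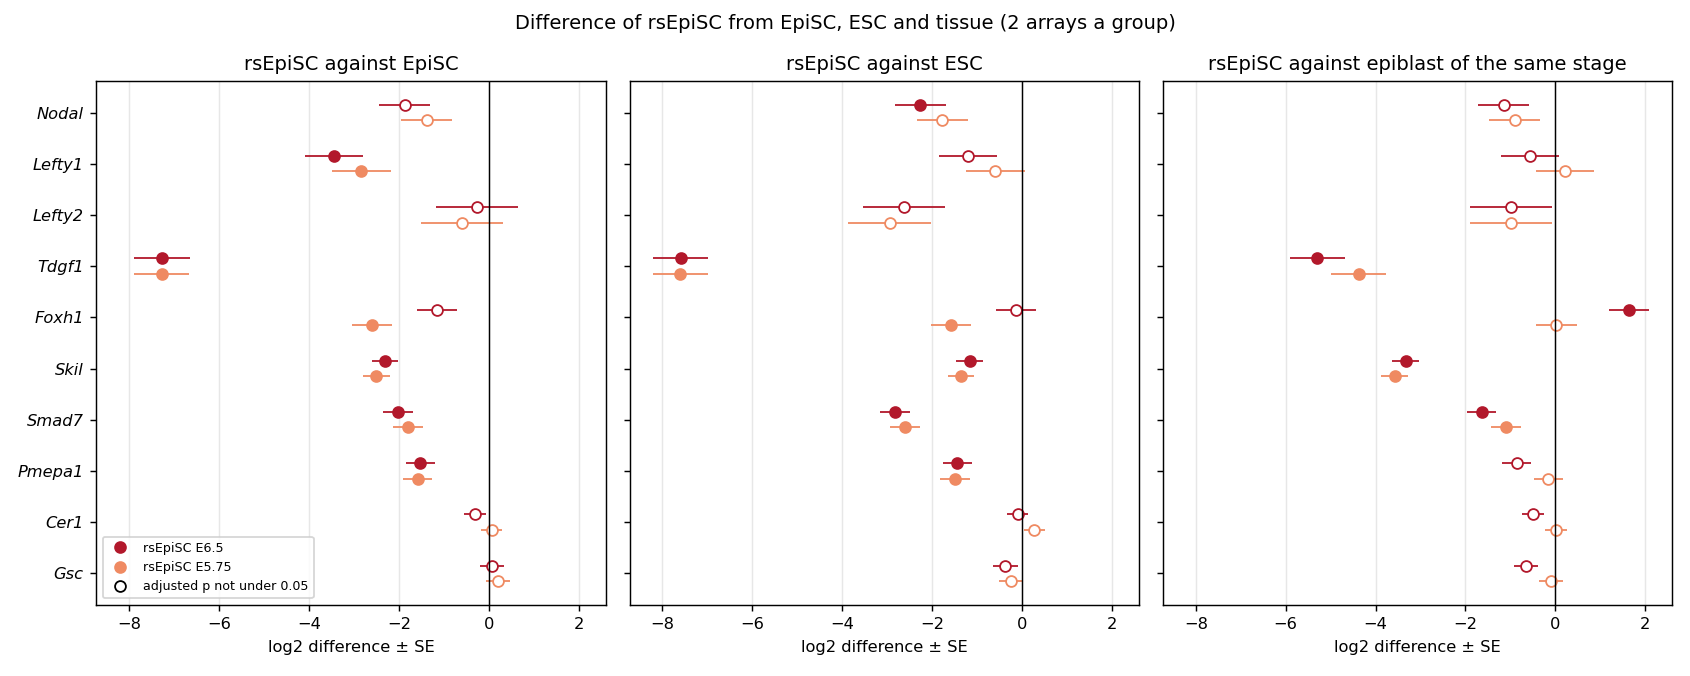
Log2 difference with its standard error (x axis) for each of the 10 genes in rsEpiSC E6.5 and rsEpiSC E5.75 against EpiSC, against ESC and against epiblast of the same stage, 2 arrays per group, with filled points where the limma adjusted p was under 0.05. Tdgf1 lies furthest left against EpiSC, at -7.27 in both rsEpiSC groups, and Foxh1 at 1.64 in rsEpiSC E6.5 against tissue is the only filled point right of 0.

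Against ESC, which also have high Tdgf1 and Smad7, 5 of the 10 genes fell in rsEpiSC E6.5 (Tdgf1, Smad7, Nodal, Pmepa1 and Skil) where 4.55% of all genes were called lower and 4.41% higher. In rsEpiSC E5.75, 5 fell (Tdgf1, Smad7, Foxh1, Pmepa1 and Skil) where 4.8% were called lower and 5.49% higher, and in neither comparison did any of the 10 rise. The medians of the 10 were -1.32 at E6.5 and -1.54 at E5.75, beside 0.02 over all genes. At E6.5 the count was 2 without ESC replicate 1 or rsEpiSC E6.5 replicate 1, and 3 without rsEpiSC E6.5 replicate 2. At E5.75 it was 3 without ESC replicate 1 or rsEpiSC E5.75 replicate 1, and 2 without rsEpiSC E5.75 replicate 2. These comparisons share the ESC arrays with each other and the rsEpiSC arrays with those against EpiSC.

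Against tissue, rsEpiSC E6.5 had 3 genes lower (Skil, Tdgf1 and Smad7) and 1 higher (Foxh1), where 5.78% of all genes were called lower and 6.72% higher. In rsEpiSC E5.75 the same 3 were lower and 0 higher, where 10% of all genes were called lower and 11.5% higher. The medians of the 10 were -0.93 at E6.5 and -0.53 at E5.75, beside -0.10 and -0.16 over all genes. The count at E6.5 was 2 without either rsEpiSC E6.5 array or epiblast E6.5 replicate 1. The spread of signals over all genes was narrower on the tissue arrays, with an interquartile range of 2.23 to 2.68, than on the cultured arrays, with 3.07 to 3.31, and its part in these differences was not tested.

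EpiSC against ESC gave 1 call among the 10, a rise of Skil by 1.15 ± 0.30 (SE, n = 2 each, adjusted p = 0.04), where 3.6% of all genes were called higher. That call was lost in 7 of the 12 fits that left out an array, those without either array of ESC, rsEpiSC E6.5 or epiblast E6.5 and that without EpiSC replicate 1. Over all genes 2.7% were called lower. Among the genes that did not pass were Nodal at -0.39 ± 0.56, Foxh1 at 1.02 ± 0.45 and Smad7 at -0.80 ± 0.33 (adjusted p = 0.872, 0.268 and 0.229), and Pmepa1, Cer1 and Gsc lay between -0.45 and 0.21. EpiSC against epiblast E5.75 gave 4 genes higher (Lefty1, Tdgf1, Foxh1 and Pmepa1) and 1 lower (Skil), where 12.6% of all genes were called higher and 11.4% lower. Without EpiSC replicate 2 the count of 5 dropped to 1, which was Foxh1, and without epiblast E5.75 replicate 1 to 2. On EpiSC replicate 2, 7 of the 10 genes had a higher signal than on replicate 1. A lean to 1 replicate was not particular to EpiSC. On replicate 1, 9 of the 10 were higher in rsEpiSC E5.75, and 7 each in ESC, rsEpiSC E6.5 and epiblast E6.5.

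No comparison between stages gave a call among the 10 genes. In rsEpiSC E6.5 against rsEpiSC E5.75, 0 passed by limma, 1 had an unadjusted p under 0.05, and 0.0857% of all genes were called. The 1 gene was Foxh1, at 1.45 ± 0.45 (adjusted p = 0.58), while Tdgf1 differed by 0.00 ± 0.61 and the other 8 genes lay between -0.61 and 0.33. In epiblast E6.5 against epiblast E5.75, 0 passed and 0.0225% of all genes were called, and the 1 gene under an unadjusted 0.05 was Pmepa1, at 0.76 ± 0.33 (adjusted p = 0.365), with the other 9 between -0.24 and 0.93. For the stage difference in rsEpiSC minus that in epiblast, 0 passed and 0.00902% of all genes were called, with Foxh1 alone under an unadjusted 0.05, at 1.62 ± 0.63 (adjusted p = 0.519) and the other 9 between -0.93 and 0.24. limma was the only tool run.

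The rest of the pathway was read from lists of genes that are not among the 10. Some genes belong to several lists, so the same call can be counted in more than 1 of them. Results of list genes with an array left out are not given here. Receptors and co-receptors gave 0 calls of 8 in either rsEpiSC comparison with EpiSC. Acvr2a, a type II activin receptor, differed by 0.30 in rsEpiSC E5.75 (adjusted p = 0.856), and Tgfbr1, a TGF-beta receptor, by 0.95 (adjusted p = 0.277). The 3 convertases that cleave the Nodal precursor (Furin, Pcsk5 and Pcsk6) also gave 0 calls. Of 8 Smad transducers and partners, 0 passed in rsEpiSC E6.5 and 1 in rsEpiSC E5.75, where Eomes, a T-box factor of the primitive streak, fell by 1.07 (adjusted p = 0.0425). In rsEpiSC E5.75, Smad2 differed by 0.22 (adjusted p = 0.852) and Smad4 by 0.01 (adjusted p = 0.999). The medians of these lists lay between -0.11 and 0.27 in the 2 comparisons, beside the 0.02 of all genes. Against ESC, Pcsk6 fell by 1.92 in rsEpiSC E6.5 (adjusted p = 0.00742) and 2.13 in rsEpiSC E5.75 (adjusted p = 0.00353). The receptor Acvr2b rose by 1.32 (adjusted p = 0.019) and 1.30 (adjusted p = 0.018), and Smad3 by 0.90 (adjusted p = 0.0374) and 1.62 (adjusted p = 0.00102). Eomes fell by 0.97 in rsEpiSC E5.75 (adjusted p = 0.0347). In EpiSC against ESC, Pcsk6 also fell and Smad3 also rose.

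Of 8 other ligands of this branch, 2 fell in rsEpiSC E6.5 against EpiSC and 3 in rsEpiSC E5.75, and 0 rose. Tgfb1 had log2 signals of 5.16 and 5.36 in rsEpiSC E6.5 and 4.60 and 5.09 in rsEpiSC E5.75, against 6.72 and 7.56 in EpiSC, with falls of 1.87 at E6.5 (adjusted p = 0.0166) and 2.29 at E5.75 (adjusted p = 0.00457). Tgfb2 fell by 1.37 at E6.5 (adjusted p = 0.0198) and 1.49 at E5.75 (adjusted p = 0.0123). Inhba, which encodes the subunit of Activin A, fell by 1.19 at E5.75 (adjusted p = 0.0411) and differed by -0.95 at E6.5 (adjusted p = 0.102). Its signals were low, at 3.14 and 3.24 in rsEpiSC E6.5, 3.17 and 2.75 in rsEpiSC E5.75, and 3.90 and 4.39 in EpiSC. All lay under the median gene of the array. Against ESC, 1 of the 8 ligands fell and 1 rose in each rsEpiSC comparison. Gdf3 fell by 4.49 in rsEpiSC E6.5 and 4.61 in rsEpiSC E5.75, with signals of 3.36 and 4.01 in rsEpiSC E6.5, 3.75 and 3.38 in rsEpiSC E5.75, and 8.87 and 7.48 in ESC. Gdf11 rose by 1.78 at E6.5 (adjusted p = 0.00153) and by 2.09 at E5.75 (adjusted p = 0.000428).

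Further inhibitors gave 3 falls of 13 in rsEpiSC E6.5 and 2 in rsEpiSC E5.75 against EpiSC, and 0 rises. Ppm1a, a phosphatase of Smad2 and Smad3, read 8.79 and 8.57 in rsEpiSC E6.5 and 8.70 and 8.63 in rsEpiSC E5.75, against 10.23 and 10.67 in EpiSC. It fell by 1.77 at E6.5 (adjusted p = 0.000782) and by 1.78 at E5.75 (adjusted p = 0.000606) and read 8.20 and 8.53 in ESC. Ldlrad4, a relative of Pmepa1, fell by 1.26 at E6.5 (adjusted p = 0.0413) and 1.23 at E5.75 (adjusted p = 0.0455). Its rsEpiSC signals of 3.04 to 3.20 lay under the median gene of each array, and it read 3.86 and 4.85 in EpiSC.

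Of 9 further targets, 2 fell and 1 rose in rsEpiSC E6.5 against EpiSC, and 3 fell and 1 rose in rsEpiSC E5.75. Among the 3 was Eomes, already counted with the Smad transducers and partners. Nanog, a pluripotency factor that Smad2 and Smad3 bind in primed cells, had log2 signals of 6.44 and 6.32 in rsEpiSC E6.5 and 5.08 and 5.56 in rsEpiSC E5.75, against 8.80 and 8.77 in EpiSC. It fell by 2.41 at E6.5 (adjusted p = 0.00237) and by 3.47 at E5.75 (adjusted p = 0.000237). Ccn2, a matrix protein gene induced by TGF-beta and by stretch, fell by 3.18 at E6.5 (adjusted p = 0.00258) and 2.37 at E5.75 (adjusted p = 0.0141). Otx2, a homeobox factor of the anterior epiblast, rose by 1.58 at E6.5 (adjusted p = 0.0187) and 1.70 at E5.75 (adjusted p = 0.0122), and its rsEpiSC signals of 8.93 to 9.41 spanned those of tissue, 9.00 to 9.35. Ccn2 and Tgfb1 are also made by fibroblasts.

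Eomes, the T-box factor named above, had higher signals on the 4 tissue arrays than on any of the 8 cultured arrays. It had log2 signals of 5.43 and 4.87 in rsEpiSC E6.5 against 8.88 and 8.97 in epiblast E6.5, and 4.31 and 4.25 in rsEpiSC E5.75 against 7.14 and 7.35 in epiblast E5.75. Eomes fell by 3.77 in rsEpiSC E6.5 and 2.96 in rsEpiSC E5.75 against tissue. Mixl1, a homeobox factor of the streak, read 3.81 and 4.14 in rsEpiSC E6.5 against 6.95 and 7.88 in epiblast E6.5, a fall of 3.44. Mixl1 also rose in epiblast E6.5 against epiblast E5.75, by 3.49 (adjusted p = 0.0128).

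The BMP branch of the TGF-beta family, which signals through other Smads, was read from 7 genes, among them the Id genes, which encode inhibitors of helix-loop-helix factors. Of the 7, 2 rose in rsEpiSC E6.5 against EpiSC and 3 in rsEpiSC E5.75, and 0 fell. Id1 had log2 signals of 5.89 and 6.56 in rsEpiSC E6.5 and 6.50 and 6.57 in rsEpiSC E5.75, against 4.26 and 4.60 in EpiSC, with rises of 1.80 at E6.5 (adjusted p = 0.0337) and 2.11 at E5.75 (adjusted p = 0.014). Id2 rose by 1.71 at E6.5 (adjusted p = 0.0375) and 1.76 at E5.75 (adjusted p = 0.0315). Id3 rose by 3.31 at E5.75 (adjusted p = 0.0347) and differed by 3.00 at E6.5 (adjusted p = 0.0548). The EpiSC arrays were far apart for Id3, at 4.49 and 6.52, beside 8.06 to 8.96 on the rsEpiSC arrays. Id4 differed by -0.13 at E6.5 (adjusted p = 0.942) and by -0.18 at E5.75 (adjusted p = 0.916). The medians of the list were -0.06 at E6.5 and 0.10 at E5.75, beside 0.02 over all genes.

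**Figure D3:**
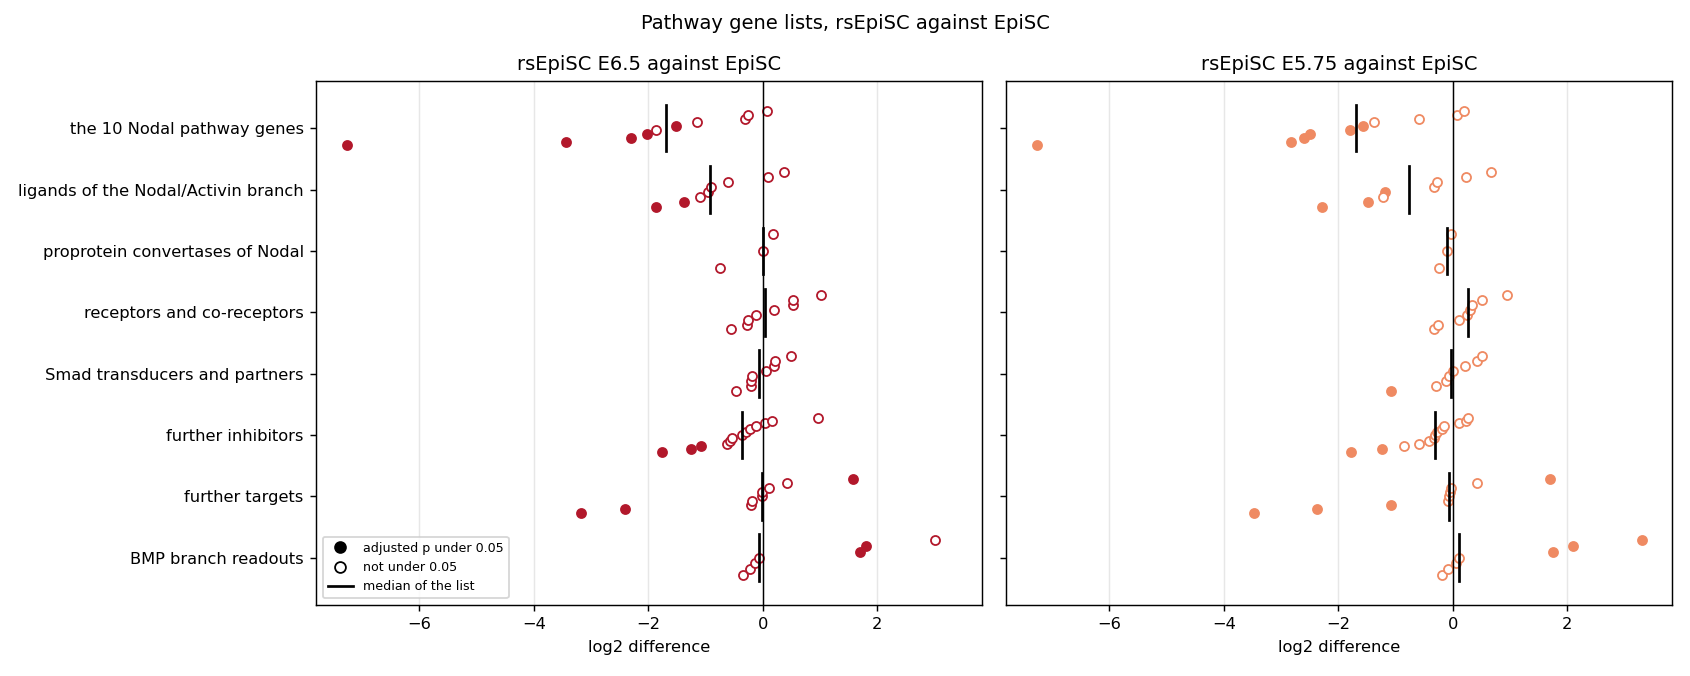
Log2 difference (x axis) of each measured gene of 8 pathway lists (rows) in rsEpiSC E6.5 against EpiSC (left) and rsEpiSC E5.75 against EpiSC (right), filled where the limma adjusted p was under 0.05, with a black bar at the median of the list. The 10 Nodal pathway genes have medians of -1.70 and -1.69, while receptors, with 0 filled points, have medians of 0.04 and 0.27.

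Feeder cells could contribute RNA to the cultured arrays. Of 17 fibroblast markers, 4 fell and 0 rose in rsEpiSC E6.5 against EpiSC, and 2 fell and 1 rose in rsEpiSC E5.75. Their summed linear signal was 831.5 and 959.5 in rsEpiSC E6.5, 1623 and 1699.8 in rsEpiSC E5.75, 1932 and 2999 in EpiSC, 2175 and 3552 in ESC, and 511.9 to 633.6 in tissue. Their mean log2 signal was 4.72 and 4.84 in rsEpiSC E6.5, 5.27 and 5.36 in rsEpiSC E5.75, 5.40 and 5.72 in EpiSC, 4.52 and 4.73 in ESC, and 4.57 to 4.62 in tissue. The sums in ESC were carried by Fn1, the fibronectin gene, at log2 signals of 10.81 and 11.61, while Col1a2 read 3.21 and 3.51 there. Col1a2, a collagen gene, had log2 signals of 4.89 and 5.01 in rsEpiSC E6.5 and 7.70 and 7.88 in rsEpiSC E5.75, against 6.29 and 9.02 in EpiSC, the higher being replicate 2. Col1a1, another collagen gene, read 4.66 and 4.62 in rsEpiSC E6.5 and 4.63 and 4.72 in rsEpiSC E5.75, against 5.31 and 6.67 in EpiSC. Thy1, a further defining marker, differed from EpiSC by 0.77 at E6.5 (limma adjusted p = 0.347) and by -0.06 at E5.75 (adjusted p = 0.988). Against EpiSC, the sum and the mean of the markers were lower in both rsEpiSC groups, as were several Nodal pathway signals. At E5.75, Col1a2 overlapped EpiSC. Against ESC, the mean of the markers was higher in rsEpiSC E5.75 and overlapped in rsEpiSC E6.5, while the sums were lower in both. Tissue had lower sums and means than rsEpiSC, but higher Tdgf1, Skil and Smad7. The part of fibroblast signal in the Nodal pathway differences was not tested. In bulk RNA, fewer cells of a type and less RNA per cell cannot be told apart.

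Visceral endoderm, which surrounds the epiblast and makes Nodal, Lefty1 and Cer1 in the embryo, gave 0 calls of 18 markers in either rsEpiSC comparison with EpiSC. Their summed linear signal ran from 433.2 to 580.3 over the 12 arrays. Of the defining markers, Afp stayed between 3.28 and 4.47 and Amn between 3.98 and 5.60. Ttr lay between 3.84 and 5.47, and was highest on ESC replicate 2 (5.47) and epiblast E6.5 replicate 2 (5.05). Of 14 markers of extraembryonic ectoderm, 1 fell in rsEpiSC E6.5 and 2 in rsEpiSC E5.75 against EpiSC. Their summed signal was 457.1 and 526.1 in rsEpiSC E6.5, 608 and 568 in rsEpiSC E5.75, 631.7 and 696.7 in EpiSC, 1726 and 1359 in ESC, 1049 and 960.4 in epiblast E6.5, and 696.9 and 660.7 in epiblast E5.75. The list holds Esrrb and Eomes, which ESC and epiblast also express, and Eomes was 1 of the 2 falls at E5.75. Of its defining markers, Elf5 read 4.97 on epiblast E6.5 replicate 1 and 2.65 to 3.39 on the other arrays. Cdx2 lay between 3.48 and 4.38 on the 12 arrays. The labels were checked with 3 genes. Klf4, a factor of naive ESC, read 9.39 and 9.56 in ESC and 4.52 to 5.34 elsewhere. Fgf5, a factor of the post-implantation epiblast, read 6.88 and 5.75 in rsEpiSC E6.5, 3.78 and 4.17 in rsEpiSC E5.75, 3.94 and 6.62 in EpiSC, 3.27 and 3.44 in ESC, and 8.45 to 9.03 in tissue. It thus marked tissue against ESC, but was near the ESC signals in rsEpiSC E5.75 and on EpiSC replicate 1. Pou5f1, which encodes the core factor Oct4, read 5.23 and 4.84 in rsEpiSC E6.5, 4.86 and 3.86 in rsEpiSC E5.75, 5.71 and 5.96 in EpiSC, 6.95 and 7.11 in ESC, and 5.54 to 5.90 in tissue. Against EpiSC it fell by 1.47 in rsEpiSC E5.75 (limma adjusted p = 0.0271) and differed by -0.80 in rsEpiSC E6.5 (adjusted p = 0.277). Against ESC it fell by 1.99 in rsEpiSC E6.5 (adjusted p = 0.00231) and by 2.67 in rsEpiSC E5.75 (adjusted p = 0.000248).

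Genes with profiles most like that of Tdgf1 were found by Pearson correlation over the 12 arrays, which share their 6 groups, so the values describe these arrays and carry no p. The 5 closest were Nudt4 (r = 0.957), Tnnt1 (0.94), Sptlc2 (0.938), Etfdh (0.938) and Erbb3 (0.93). Mean log2 signal of Erbb3, a receptor of the EGF receptor family, was 4.70 in rsEpiSC E6.5, 4.75 in rsEpiSC E5.75, 6.53 in EpiSC, 6.36 in ESC, 6.14 in epiblast E6.5 and 5.84 in epiblast E5.75. Nudt4, a hydrolase gene, averaged 7.23, 7.44, 9.41, 9.06, 8.60 and 8.72 in the same order of groups. For Nodal the 5 closest were Itih3 (0.936), Dmtn (0.916), Esrp2 (0.914), Acacb (0.911) and Pml (0.878). Group means of Itih3, from 3.24 to 3.84, and of Acacb, from 3.84 to 4.46, lay under the median gene of every array. Esrp2, a splicing factor of epithelial cells, averaged 4.13 in rsEpiSC E6.5, 4.51 in rsEpiSC E5.75, 5.22 in EpiSC, 5.32 in ESC, 4.57 in epiblast E6.5 and 4.70 in epiblast E5.75.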

How the data were processed

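RNA of 12 samples was measured on expression arrays. The deposited table holds log2 signals of 41345 probe sets, from 0.332 to 13.594, which the authors made by RMA in oligo, as the submitters' processing notes say. The sources used here give no versions or settings. A human array is named in the labels' protocol, but the probe set identifiers match a mouse annotation table, which was used. Of the probe sets, 23521 had 1 gene symbol, 1814 several and 16010 none. The probe set with the highest mean was kept per gene, leaving 22180 genes, with no filter on low signal. RefSeq (GRCm38.p6) held 99.16% of their gene identifiers. Array signals have no read depth, and 2 arrays per group limit the precision. RMA signals of different probe sets were not compared, and a fold is of array signal.

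limma 3.58.1 (R 4.3.3) tested the differences, with lmFit for the means of 6 groups, then eBayes with the variance trended, at 6 residual degrees of freedom. Each SE thus rests on a spread per gene that the 6 groups share, and n counts the arrays compared. The root mean square standard deviation within a group was not the same throughout, from 0.242 in rsEpiSC E6.5 to 0.464 in epiblast E5.75. Adjustment of p-values was by Benjamini and Hochberg over all genes in each comparison, with a threshold of 0.05. The test was checked on simulated data. The 10 genes and all lists were chosen with earlier results of these data known. Each of the 10 genes was tested in every comparison, and differences that did not pass are given in part. From each list, named genes are up to 4 that passed with the largest change and up to 2 others of highest mean signal, besides the 5 profiles nearest to Tdgf1 and to Nodal and the label checks Pou5f1, Klf4 and Fgf5. Values of Inhba and Gdf3 outside that rule, Id4, Fn1, Col1a1, Col1a2, Thy1, Afp, Amn, Ttr, Elf5 and Cdx2 were named after their values were seen. So were Acta2, Tagln, S100a4, Fbln2, Smad6, Msx2 and Bambi, and the differences of Pcsk6, Acvr2b, Smad3 and Eomes from ESC. List genes without a probe set of a single symbol were not analysed here. Alternatives were a block of replicate number, each array left out, only the arrays compared, every probe set, a signal filter, median centring or quantile normalization, no variance trend and array weights.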

Additional observations from a re-analysis of the deposited data

How the results depend on the processing

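No difference of the 10 genes turned its direction while past the threshold. With 1 array left out in turn, the lone array being assumed to vary like the other groups, the number of the 10 that passed ran from 2 to 6 in rsEpiSC E6.5 against EpiSC, 2 to 6 in rsEpiSC E5.75 against EpiSC, 2 to 5 in rsEpiSC E6.5 against ESC, 2 to 6 in rsEpiSC E5.75 against ESC, 2 to 4 and 2 to 3 against tissue at E6.5 and E5.75, 0 to 1 in EpiSC against ESC, 1 to 5 in EpiSC against epiblast E5.75 and 0 to 0 between stages. Testing every probe set left 3 in rsEpiSC E6.5 against EpiSC and 3 in rsEpiSC E6.5 against ESC. In EpiSC against ESC the count was 0 with only the arrays compared, every probe set, quantile normalization, array weights or the 8 cultured arrays alone (an alternative chosen after seeing the data), and 2 with genes above the median signal. In EpiSC against epiblast E5.75 it was 3 with only the arrays compared. Tdgf1 passed under all alternatives in the 6 comparisons of rsEpiSC with EpiSC, ESC and tissue. The replicate numbers did not pair the arrays (correlations of deviations from -0.26 to 0.058 over 15 pairs of groups). With the replicate number as a block, 5, 6, 5 and 4 genes passed in rsEpiSC E6.5 and E5.75 against EpiSC and E6.5 and E5.75 against ESC, Foxh1 being lost in the last. Quantile normalization moved the median of all genes in rsEpiSC E5.75 against epiblast E5.75 to -0.03, beside -0.16 as deposited, and in EpiSC against epiblast E5.75 to -0.05, beside -0.19. Over all genes, array weights gave 1911 and 1567 calls in rsEpiSC E6.5 and E5.75 against EpiSC, beside 863 and 858, and every probe set gave 517 in the first. With only the arrays compared, EpiSC against ESC had 558 calls beside 1396, EpiSC against epiblast E5.75 had 2316 beside 5321, and rsEpiSC E5.75 against epiblast E5.75 had 2909 beside 4768. EpiSC against epiblast E5.75 had 3261 with array weights. Between the rsEpiSC stages the 19 calls became 157 with only the arrays compared, 257 with array weights and 10 in the 8 cultured arrays. Between epiblast stages the 5 calls ran from 0 to 14, and for the difference of the stage differences the 2 ran from 1 to 7, over the alternatives that kept every array of the groups compared. With an array left out, calls over all genes ran from 242 to 1002 in rsEpiSC E6.5 and 318 to 1005 in rsEpiSC E5.75 against EpiSC, 835 to 2266 and 1027 to 2575 against ESC (beside 1988 and 2282), 553 to 3754 and 1627 to 5504 against tissue of the same stage (beside 2772 and 4768), 829 to 1614 in EpiSC against ESC, 2458 to 6100 in EpiSC against epiblast E5.75, 3 to 25 between rsEpiSC stages, 0 to 155 between epiblast stages and 1 to 6 for the difference of the stage differences. The shares of all genes printed beside the counts of the 10 move with these. The cause was not tested, beyond fewer arrays in the estimate of spread. Each of the 10 genes had 1 probe set, so the planned use of other probe sets gave no value. Array signals near the low end, such as Cer1, limit what differences could be seen.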
